A study of Mus musculus with 6 samples.

Results

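The genes described here are the Egr and Nr4a families and 3 other immediate-early genes, Ier2, Dusp1 and Arc, which are 10 of the 18211 genes in the deposited table. They were taken by their gene symbol, and all 10 were among the 13792 genes tested. Immediate-early genes are transcribed within minutes of a growth factor, calcium or stress signal, from transcription factors already present in the cell. The EGR proteins are zinc finger transcription factors and the NR4A proteins are orphan nuclear receptors that act without a known hormone ligand. IER2 is a small nuclear protein, DUSP1 is a phosphatase that switches off MAP kinases, and ARC is a cytoskeletal protein best known in neurons, where it controls the removal of AMPA receptors from synapses. In the oligodendrocyte lineage, growth factor signalling is a known inducer of this gene class.

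RNA was sequenced from oligodendrocyte precursor cells (OPCs), the glial cells from which myelinating oligodendrocytes arise, in 3 wildtype and 3 DISC1-Δ3 libraries of C57BL/6 mice. The DISC1-Δ3 mice carried NG2-CreERTM and a DISC1 allele with exon 3 flanked by loxP sites (DISC1 exon3 fl/+), so that tamoxifen removes exon 3 from a single allele in cells that use the NG2 promoter. The wildtype animals had no CreERT according to the study's text, and both groups received tamoxifen by gavage on each day from P4 to P7. Cells were taken at P7 by immunopanning on Pdgfrα and their RNA was extracted directly, without culture. The labels do not say whether each library came from a separate animal, so the p-values measure the spread between these libraries, which may be technical.

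The libraries held 13716619 to 16417219 assigned reads. Disc1 itself was at 3.55 ± 0.24 RPKM (reads scaled by transcript length and library total; mean ± SD, n = 3) in the wildtype libraries and at 2.72 ± 0.24 RPKM in the DISC1-Δ3 libraries, with a log2 fold change of -0.45 (SE 0.088, adjusted p = 0.000528 in edgeR's quasi-likelihood test), and a value for the whole gene cannot show the loss of exon 3. DISC1-Δ3 replicate 3 stood apart from the other DISC1-Δ3 libraries, since the chi-square of its reads, divided by the degrees of freedom, was 5.39 and 4.99 against them and 1.80 to 2.97 for the other pairs within a group. The OPC markers Pdgfra, Cspg4, Olig2 and Sox10 were present in every library, but microglial markers were far more abundant. Summed levels are in CPM, here reads scaled to the library total multiplied by its TMM factor from edgeR. This factor was 0.97 to 0.973 in wildtype and 1.02 to 1.04 in DISC1-Δ3 libraries. The 18 microglial markers summed to 31570 to 32130 CPM in wildtype and 21360 to 22580 CPM in DISC1-Δ3 libraries. The 9 OPC markers summed to 2106 to 2214 CPM in wildtype and 2445 to 2485 CPM in DISC1-Δ3 libraries. The Y-linked genes Ddx3y, Eif2s3y, Kdm5d and Uty summed to 48.5 to 52.8 CPM in wildtype and 10.9 to 13.5 CPM in DISC1-Δ3 libraries, and the labels give no sex, so the sex of the animals and the genotype cannot be told apart. The part of these differences in the results below was not tested. The levels are those of these mixed preparations and cannot be assigned to OPCs. In bulk RNA, fewer cells of a type and less RNA per cell cannot be told apart.

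The immediate-early genes moved in both directions. Egr3, Nr4a2, Nr4a3 and Arc were higher in the DISC1-Δ3 libraries by 2.03-fold to 2.30-fold, Nr4a1 fell by 36.1%, Dusp1 fell by 25.9% and Ier2 fell by 19.8%, while Egr1, Egr2 and Egr4 did not pass the threshold of an adjusted p of 0.05. Of all tested genes, 20.4% were higher and 19.5% were lower at that threshold, so that a call in either direction was common in these libraries. A rise of 1 or more on the log2 scale was less common, at 2.76% of tested genes. The 4 higher genes all had one in this fit, but none of them had one in every alternative. The libraries of the genotypes did not overlap in scaled reads for 7 of the 10 genes, beside 49.6% of all tested genes. The median log2 fold change was 0.19 over the 10 genes and 0.01 over all tested genes. All fold changes are DISC1-Δ3 over wildtype from edgeR after TMM scaling. Of the genes called, 51.1% were higher with that scaling and 69.2% with scaling by library totals alone.

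**Figure D1:**
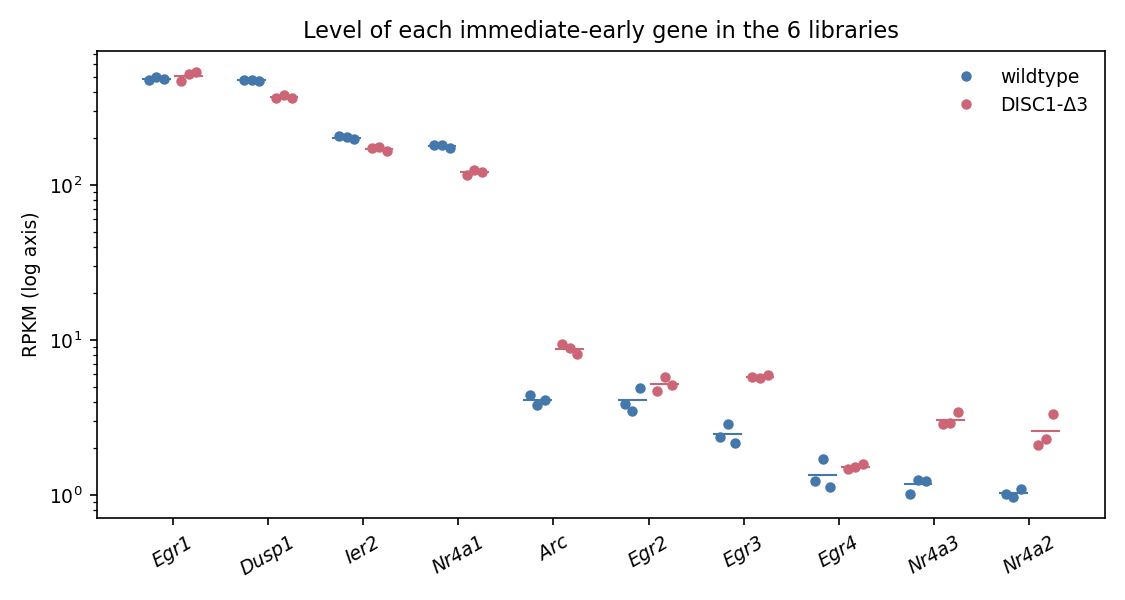
RPKM of the 10 genes in each of the 6 libraries, on a log axis, with wildtype in blue, DISC1-Δ3 in red, points for libraries and lines for group means. Egr1, Dusp1, Ier2 and Nr4a1 lie above 100 RPKM and the other 6 genes below 10 RPKM, and only Egr1, Egr2 and Egr4 have points of both genotypes at the same height.

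Within the Egr family, Egr1 was by far the most abundant transcript. It was at 478.68, 494.5 and 480.28 RPKM in wildtype replicates 1 to 3 and at 468.42, 522.78 and 536.54 RPKM in DISC1-Δ3 replicates 1 to 3, and the groups overlapped, with DISC1-Δ3 replicate 1 below and replicates 2 and 3 above every wildtype library. The log2 fold change was -0.01 (SE 0.047, 95% confidence interval -0.11 to 0.09, adjusted p = 0.890 by edgeR), and its sign depended on the scaling, with 0.07 when library totals alone were used. Egr1, which links growth factor and stress signals to transcription, was backed by 19178 to 25285 reads a library, and the interval is narrow.

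Egr3, a family member first studied in muscle spindles and lymphocytes, behaved differently. Its level was 2.37, 2.87 and 2.17 RPKM in wildtype and 5.79, 5.7 and 5.91 RPKM in DISC1-Δ3 libraries. Every DISC1-Δ3 library was above every wildtype library, and the DISC1-Δ3 libraries lay close together. Its log2 fold change was 1.15 (SE 0.11, adjusted p = 1.52e-07 by edgeR), a rise of 2.22-fold, on 121 to 176 reads in wildtype and 308 to 355 reads in DISC1-Δ3 libraries. Egr3 lies at chr14:70077317-70082613 of GRCm38.p6, the assembly of mm10, and overlaps no other gene of the RefSeq table there.

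Egr2, known for its role in Schwann cell myelination and hindbrain patterning, was at 3.87, 3.49 and 4.9 RPKM in wildtype and 4.69, 5.77 and 5.16 RPKM in DISC1-Δ3 libraries. DISC1-Δ3 replicate 1 lay below wildtype replicate 3, so the groups overlapped. Its log2 fold change was 0.30 (SE 0.12, 95% confidence interval 0.05 to 0.54) with an adjusted p of 0.0524 by edgeR, at the edge of the threshold, and the adjusted p ran from 0.0161 to 0.252 over the alternatives. Its count was not whole in 5 of the 6 libraries, as is the case when reads are divided between genes, and the gene (chr10:67534469-67542188) overlaps Gm32255, which makes its values uncertain. Egr4 (chr6:85511121-85513589) was at 1.23, 1.71 and 1.13 RPKM in wildtype and 1.47, 1.52 and 1.59 RPKM in DISC1-Δ3 libraries, with wildtype replicate 2 above all others. With 33 to 55 reads a library, the 95% confidence interval of its log2 fold change reached from -0.37 to 0.53. A difference of any size within this interval was not excluded at this depth.

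Because Egr1 was so abundant, the summed level of the 4 Egr genes followed it. Egr1 made up 98.3% to 98.5% of the summed Egr RPKM of wildtype libraries and 97.5% to 97.7% of that of DISC1-Δ3 libraries. The ratio of Egr1 to Egr3 RPKM was 202, 172 and 221 in wildtype libraries, against 80.9, 91.7 and 90.8 in DISC1-Δ3 libraries, without overlap. In a two-sided exact permutation test this gave p = 0.1, the smallest that 3 libraries against 3 allow, and 0.167 after adjustment over the 5 ratios compared. The ratio of Egr1 to Egr2 overlapped, with 124, 142 and 98.0 in wildtype libraries against 99.9, 90.6 and 104 in DISC1-Δ3 libraries (exact permutation p = 0.3).

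**Figure D2:**
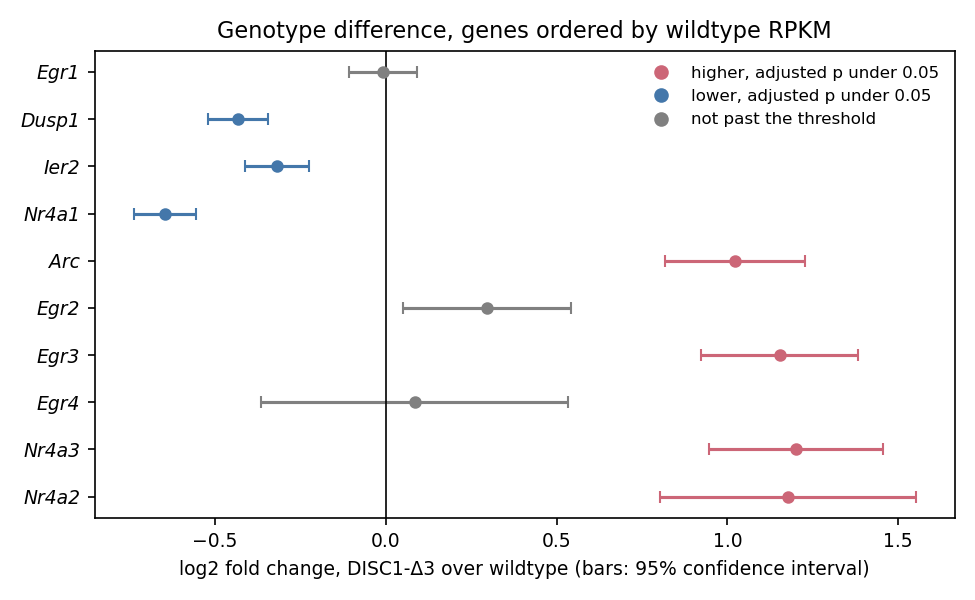
Log2 fold change of each gene, DISC1-Δ3 over wildtype, with bars for the 95% confidence interval of the edgeR fit, ordered from the highest (Egr1) to the lowest (Nr4a2) wildtype RPKM. Dusp1, Ier2 and Nr4a1 lie left of 0, Arc, Egr3, Nr4a3 and Nr4a2 lie near or above 1, and the intervals of Egr1 and Egr4 include 0.

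The 3 Nr4a genes changed in opposite directions. Nr4a1, also called Nur77, fell by 36.1%, whereas Nr4a2 (Nurr1), which is required for midbrain dopamine neurons, and Nr4a3 (Nor1) rose by 2.26-fold and 2.30-fold. The NR4A proteins recognise the same DNA motif, and Nr4a1 and Nr4a2 can pair with retinoid X receptors.

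Nr4a1 was at 181.35, 182.27 and 173.86 RPKM in wildtype and 116.58, 125.12 and 120.93 RPKM in DISC1-Δ3 libraries. All DISC1-Δ3 libraries were below all wildtype libraries, by more than the range within either group. The log2 fold change was -0.65 (SE 0.043, adjusted p = 1.84e-09 by edgeR) on 3931 to 7084 reads a library, and it lay between -0.69 and -0.56 over the 15 alternatives. Nr4a1 lies at chr15:101253902-101274795.

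Nr4a2 was far less abundant than Nr4a1, at 1.02, 0.97 and 1.1 RPKM in wildtype and 2.11, 2.3 and 3.31 RPKM in DISC1-Δ3 libraries. DISC1-Δ3 replicate 3, the library that stood apart, was the highest, but the other DISC1-Δ3 libraries were also above all wildtype libraries. The log2 fold change was 1.18 (SE 0.18, adjusted p = 3.97e-05 by edgeR) and was 0.96 without DISC1-Δ3 replicate 3 (adjusted p = 3.79e-05, within 1.53e-07 to 0.000684 over all alternatives). It rests on 50 to 61 reads in wildtype and 103 to 175 reads in DISC1-Δ3 libraries. The gene (chr2:57106830-57124003) overlaps LOC105244150, and use of the strand in counting is not stated, so their reads may be mixed. Unlike that of Egr2, the count of Nr4a2 was whole in all 6 libraries, which does not settle whether reads were mixed.

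Nr4a3 was at 1.02, 1.26 and 1.24 RPKM in wildtype and 2.86, 2.93 and 3.41 RPKM in DISC1-Δ3 libraries. The groups were separate, with the lowest DISC1-Δ3 library above the highest wildtype library. Its log2 fold change of 1.20 (SE 0.12, adjusted p = 3.40e-07 by edgeR) was close to those of Nr4a2 and Egr3, and the order of these 3 genes changed between alternatives. It rested on 77 to 116 reads in wildtype and 206 to 274 reads in DISC1-Δ3 libraries. Nr4a3 spans chr4:48045078-48086447.

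The family sum followed Nr4a1. The 3 genes summed to 183.4, 184.5 and 176.2 RPKM in wildtype and to 121.6, 130.4 and 127.6 RPKM in DISC1-Δ3 libraries, and the part of Nr4a2 and Nr4a3 together went from 1.11% to 1.33% up to 4.01% to 5.26%. There were 178, 188 and 158 units of Nr4a1 RPKM for each unit of Nr4a2 in wildtype libraries, and 55.3, 54.4 and 36.5 in DISC1-Δ3 libraries. For Nr4a1 to Nr4a3 the ratios were 178, 145 and 140 against 40.8, 42.7 and 35.5. Both ratios were separate between the genotypes, with p = 0.1 in the exact permutation test and 0.167 after adjustment over 5 ratios. The ratio of Nr4a2 to Nr4a3 overlapped, with 1, 0.77 and 0.89 in wildtype libraries against 0.74, 0.79 and 0.97 in DISC1-Δ3 libraries (exact permutation p = 0.6).

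Among the other genes, Dusp1 and Ier2 were lower. Dusp1 was at 479.31, 475.03 and 467.74 RPKM in wildtype and 365.9, 382.82 and 364.77 RPKM in DISC1-Δ3 libraries, with a gap between the groups that was wider than the spread within them. The log2 fold change was -0.43 (SE 0.041, adjusted p = 1.71e-07 by edgeR), from 474.0 ± 5.9 to 371.2 ± 10.1 RPKM (mean ± SD, n = 3). Dusp1 removes the phosphates that activate p38, JNK and ERK kinases, and lies at chr17:26505591-26508472. Ier2 (chr8:84661331-84662852) was at 206.66, 204.05 and 197.01 RPKM in wildtype and 172.42, 176.45 and 166.4 RPKM in DISC1-Δ3 libraries, and again no library of one genotype reached the other. Its log2 fold change was -0.32 (SE 0.045, adjusted p = 1.77e-05 by edgeR), the smallest of the 7 calls. Without further scaling of the RPKM, the fall of Ier2 was smaller but still past the threshold, with a difference of -0.24 in limma on log2(RPKM + 1).

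Arc rose. Its level was 4.39, 3.8 and 4.11 RPKM in wildtype and 9.39, 8.88 and 8.1 RPKM in DISC1-Δ3 libraries, and every DISC1-Δ3 library was above every wildtype library. Its log2 fold change was 1.02 (SE 0.097, adjusted p = 1.71e-07 by edgeR) on 175 to 196 reads in wildtype and 380 to 418 reads in DISC1-Δ3 libraries. Arc lies at chr15:74669081-74672570. Most neuronal markers were also higher in the DISC1-Δ3 libraries, with 10 of 13 higher and 0 lower past the threshold. The remaining markers, Dcx (log2 fold change -0.13), Gad1 (-0.11) and Gad2 (-0.25), pointed the other way and did not pass. Of all tested genes, 20.4% were higher and 19.5% were lower. The neuronal markers summed to 791.4 to 802.6 CPM in wildtype and 918.3 to 941.8 CPM in DISC1-Δ3 libraries, a difference of 16.4%. The 10 higher neuronal markers include Slc17a6, which was below 0.5 RPKM in every wildtype library. It entered the test only through the DISC1-Δ3 libraries, where it was higher. The part of neuronal RNA in the Arc level was not tested.

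Among the members called, the direction went with abundance. The 3 lower genes were all above 100 RPKM, and the 4 higher genes were all below 10 RPKM. Egr1, the most abundant member at 484.5 RPKM in wildtype libraries, did not pass, with a log2 fold change of -0.01. Egr2 and Egr4, both below 10 RPKM, did not pass either. Over all tested genes, falls outnumbered rises only above 100 RPKM. Of 816 genes above 100 RPKM, 43.9% were lower and 14.1% were higher. Of 5648 genes between 10 and 100 RPKM, 21.9% were lower and 23% were higher. Of 7328 genes below 10 RPKM, 14.9% were lower and 19.0% were higher. The median log2 fold changes at these levels were -0.09, 0.02 and 0.01. A rise of 1 or more on the log2 scale was made by 4.49% of the genes below 10 RPKM and by 0.98% of those above 100 RPKM.

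**Figure D3:**
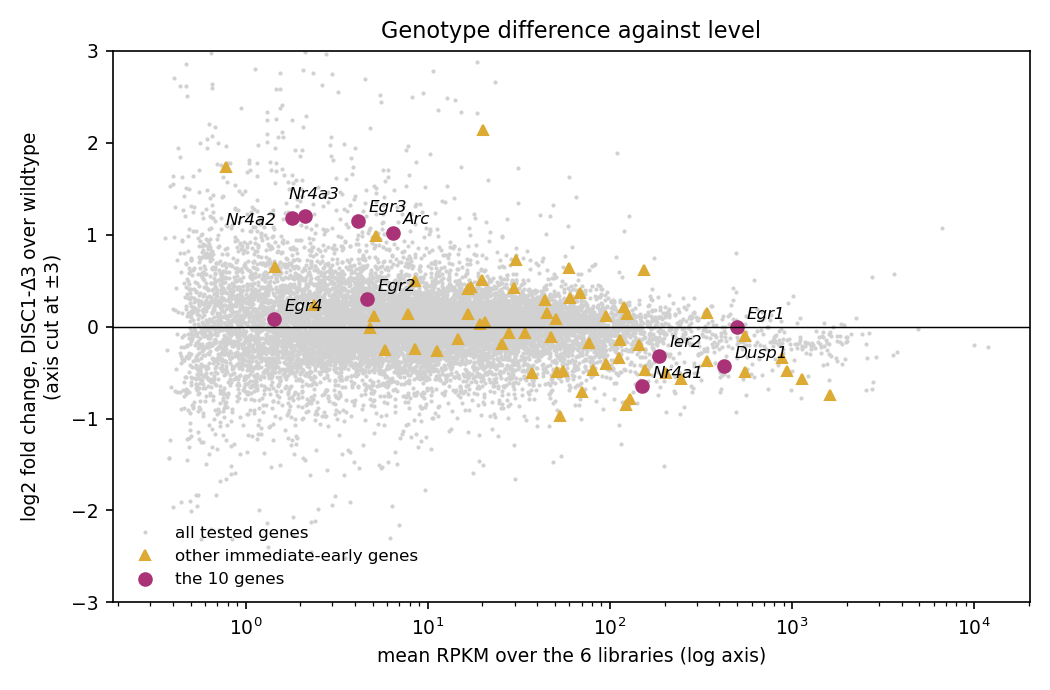
Log2 fold change, DISC1-Δ3 over wildtype, against the mean RPKM of the 6 libraries on a log axis, for all 13792 tested genes (grey), 59 other immediate-early genes (yellow triangles) and the 10 genes (purple, named), with the vertical axis ending at 3 on either side. The purple points above 1 are all below 10 RPKM, and Nr4a1, Dusp1 and Ier2 lie below 0 at over 100 RPKM.

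Promoter sequence of the reference genome was looked at because members that moved together could be compared at the sites where known inducers of this gene class act. The RefSeq promoter table held windows for 6 of the 10 genes (Egr2, Egr4, Nr4a1, Nr4a2, Nr4a3 and Dusp1), and Egr1, Egr3, Ier2 and Arc were not searched. The windows run from 250 bases before to 50 bases after a start site of GRCm38.p6, and 5 of the 10 windows belong to Egr2 and partly overlap. For Nr4a1, Nr4a3 and Egr2 these start sites are internal to the gene spans given above. Their windows therefore lie wholly or mostly inside the annotated gene and not upstream of it. Searched on both strands were the CArG box of serum response factor, the cAMP response element TGACGTCA bound by CREB, its short form CGTCA, which is part of the full element, and the EGR sites GCGGGGGCG and GCGTGGGCG. The short cAMP response element was found in each of the 6 genes searched and in 8 of the 10 windows, beside 20.8% of 32851 windows of all genes. The full element was found in Dusp1 only (1.79% of all windows), the CArG box in Egr2 only (1.63%) and an EGR site in Nr4a1 only (3.47%). The lines below run from 5′ to 3′ on the gene's strand, capitals mark these matches, and the stretches of Nr4a1, Nr4a2 and Dusp1 end before the nearest annotated exon, at chr15:101266596-101266845 on the plus strand, chr2:57124004-57124253 on the minus strand and chr17:26508520-26508722 on the minus strand. They are shown because Nr4a1 and Dusp1 fell and Nr4a2 rose.
Nr4a1: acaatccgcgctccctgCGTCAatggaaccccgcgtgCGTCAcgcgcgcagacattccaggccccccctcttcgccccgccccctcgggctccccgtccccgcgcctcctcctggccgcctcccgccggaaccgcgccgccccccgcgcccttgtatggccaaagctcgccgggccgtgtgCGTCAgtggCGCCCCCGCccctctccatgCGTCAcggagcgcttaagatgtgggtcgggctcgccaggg
Nr4a2: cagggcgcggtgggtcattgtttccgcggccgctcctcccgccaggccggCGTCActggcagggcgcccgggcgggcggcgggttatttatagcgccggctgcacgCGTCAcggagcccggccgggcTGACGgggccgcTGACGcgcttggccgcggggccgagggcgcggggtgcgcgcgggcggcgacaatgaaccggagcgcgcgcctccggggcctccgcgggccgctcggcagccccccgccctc
Dusp1: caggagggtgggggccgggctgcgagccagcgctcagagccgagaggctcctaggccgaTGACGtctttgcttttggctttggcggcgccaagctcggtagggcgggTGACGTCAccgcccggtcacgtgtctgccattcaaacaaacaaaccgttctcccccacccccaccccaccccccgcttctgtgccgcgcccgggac

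For the other genes, short stretches between a pair of matches are shown, and these lie wholly or mostly inside the gene spans. In Nr4a3, which rose with Nr4a2, a pair of short cAMP response elements lay at chr4:48045074-48045096 on the plus strand. In Egr2, which did not pass the threshold, a CArG box and a short cAMP response element lay together at chr10:67537797-67537818 on the plus strand.
Nr4a3: TGACGtagcgtcccatgtCGTCA
Egr2: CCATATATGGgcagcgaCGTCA

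The short element had 4 matches each in the windows of Nr4a1, Nr4a2 and Nr4a3 and 3 in that of Dusp1, and no difference between genes that fell and genes that rose was tested. A match describes the letters only and is no evidence that a factor was bound in these cells.

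The genes were also compared by their pattern over the 6 libraries, as the root mean square difference of log2 CPM after each gene was centred on its own mean. Dusp1 and Ier2 were the closest pair among the 10 genes, at 0.060, and the nearest to Nr4a1 was Dusp1, at 0.109. Egr3 and Nr4a3 were nearest to each other, at 0.136, Nr4a2 was nearest to Nr4a3, at 0.195, and Arc was nearest to Egr3, at 0.197. Egr2 and Egr4 were nearest to Egr1, at 0.207 and 0.175. Egr1 was nearest to Ier2, at 0.171, which was above its median of 0.159 over all genes. Over all tested genes, the nearest to Nr4a3 were Ociad2, Necab2 and Ackr3, at 0.058 to 0.081, against a median of 0.618 over all genes. The nearest to Nr4a2 were Unc5d, Slc25a24 and Rgs9, at 0.117 to 0.126, and the nearest to Egr3 were Tom1l1, Grm7 and Ngb, at 0.086 to 0.088. These 9 genes had log2 fold changes between 0.98 and 1.28. They were chosen for likeness to genes that rose, so similar changes follow from the choice. A median as large as 0.618 follows likewise from the rise of Nr4a3, since most genes changed little.

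Other immediate-early genes also moved both ways. Of 60 listed, 59 were tested, and 19 were higher, 25 were lower and 15 did not pass, beside 20.4% higher and 19.5% lower of all tested genes, with a median log2 fold change of -0.07. Bdnf was below the filter. The largest falls were those of Rgs2, which shortens G protein signals (69.5 ± 3.1 to 37.5 ± 3.3 RPKM, mean ± SD, n = 3, log2 fold change -0.97), Btg2, an antiproliferative gene (154.1 ± 3.5 to 90.0 ± 3.4 RPKM, -0.86), Ier3 (160.7 ± 8.4 to 98.3 ± 3.7 RPKM, -0.79) and Zfp36, which destabilises mRNAs of cytokines and of immediate-early genes (1986 ± 29.97 to 1255 ± 56.9 RPKM, -0.74). The largest rises were those of Nptx2, a secreted pentraxin that clusters AMPA receptors (7.06 ± 0.62 to 33.0 ± 1.0 RPKM, log2 fold change 2.14), Fosl1, an AP-1 subunit (0.35 ± 0.12 to 1.20 ± 0.27 RPKM, 1.73), Noct, a gene with circadian expression (3.44 ± 0.20 to 6.96 ± 0.23 RPKM, 0.99), and Rcan1, an inhibitor of calcineurin (22.1 ± 1.3 to 38.8 ± 1.3 RPKM, 0.72). All 8 genes had adjusted p-values of 0.000659 or less by edgeR. Fosl1 rested on 4 to 11 reads in wildtype libraries, all of them below 0.5 RPKM, so it entered the test only through the DISC1-Δ3 libraries, where it was high, and its rise and place among the 19 higher genes were favoured by the filter.

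Split by level, the other immediate-early genes were mostly lower where they were abundant. Of 19 above 100 RPKM, 14 were lower and 4 were higher, with a median log2 fold change of -0.37. Of all tested genes at that level, 43.9% were lower and 14.1% were higher. Of 30 between 10 and 100 RPKM, 10 were lower and 11 were higher, beside 21.9% and 23% of all tested genes there. Of 10 below 10 RPKM, 1 was lower and 4 were higher, beside 14.9% and 19%.

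The AP-1 genes, whose products pair to bind TPA response elements, were chosen for description after their values were seen. Fos was at 553.0 ± 2.9 RPKM in wildtype and 545.4 ± 16.3 in DISC1-Δ3 libraries (mean ± SD, n = 3), with a log2 fold change of -0.10 and an adjusted p of 0.0526 by edgeR. Junb fell from 1321 ± 46.2 to 940.7 ± 33.3 RPKM (-0.57), Jun from 965.2 ± 14.7 to 808.3 ± 11.3 (-0.34) and Atf3 from 634.5 ± 18.1 to 475.3 ± 21.8 (-0.50). Fosb rose from 117.6 ± 4.6 to 190.9 ± 3.2 RPKM (0.62), and Jund rose as well (0.15), so that both were among the 4 genes of the list above 100 RPKM that were higher. Egr1 and Fos, the most widely used members of this class, were both among the genes that did not pass.

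Of the 25 regulators that switch immediate-early genes on, 6 were higher and 8 were lower, beside 20.4% and 19.5% of all tested genes, with a median of -0.12. The largest rises were in Crem (1.60 ± 0.04 to 2.77 ± 0.11 RPKM, log2 fold change 0.72), which encodes CREB-related activators and the repressor ICER, the ribosomal S6 kinase gene Rps6ka2 (0.65), the ternary complex factor gene Elk1 (0.49) and the CREB coactivator gene Crtc1 (0.33). The largest falls without overlap were in Rps6ka1 (-0.37), Rps6ka5 (-0.36), which encodes the kinase MSK1, Camk2d (-0.33) and Elk3 (-0.27). These changes were smaller than those of the 4 immediate-early genes that rose.

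Of 20 partners and inhibitors of the encoded proteins, 19 were in the table, and 8 were higher and 3 were lower, beside the same 20.4% and 19.5% of all tested genes, with a median of 0.21. Nab1 and Nab2 encode corepressors that bind EGR proteins. Nab1 was at 5.25 ± 0.84 and 5.77 ± 1.18 RPKM (log2 fold change 0.05, 95% confidence interval -0.22 to 0.32), and Nab2 was at 17.1 ± 0.8 and 20.4 ± 0.4 RPKM (0.15, adjusted p = 0.0726 by edgeR). Of the retinoid X receptors, Rxra fell from 21.1 ± 0.6 to 16.1 ± 1.1 RPKM (-0.46, adjusted p = 4.46e-06 by edgeR), while Rxrb (-0.14) and Rxrg (0.45, on 33 to 60 reads) did not pass. The other falls were in Sp1 (-0.42), whose protein binds GC-rich sites that overlap EGR sites, and Dnm2 (-0.18), a dynamin to which ARC binds. The largest rises were in Dusp14 (0.63), one of the relatives of Dusp1, and in Camk2a (0.45), Gria1 (0.42) and Camk2b (0.35). The last of these genes, from Camk2a on, encode synaptic proteins that work with ARC.

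**Figure D4:**
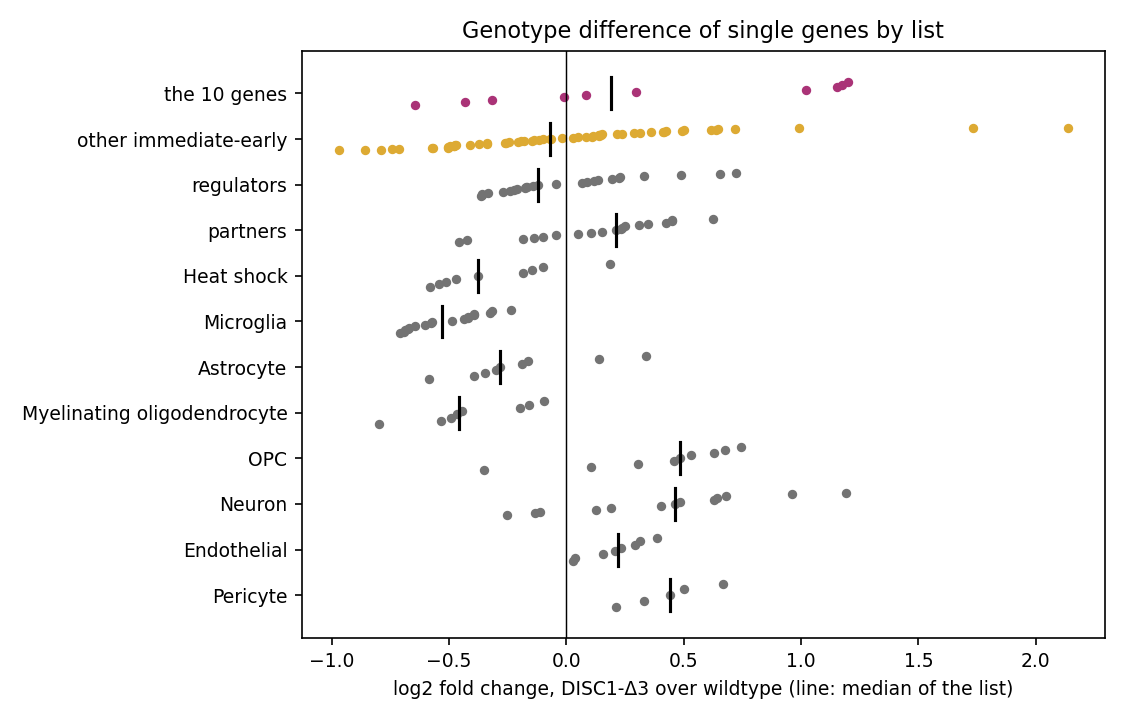
Log2 fold change, DISC1-Δ3 over wildtype, of every tested gene of each list (points), with a vertical line at the list's median, for the 10 genes, the other lists of the pathway, heat shock genes and cell type markers. The 10 genes reach from -0.65 to 1.20 with no gene between 0.30 and 1.02, the microglial markers all lie below 0, and the OPC and neuronal medians lie above 0.

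Cell type markers moved with the genotype as well. Their counts stand beside 20.4% higher and 19.5% lower of all tested genes. Above 100 RPKM, where many of these markers lie, 43.9% of all tested genes were lower and 14.1% were higher. All 18 microglial markers were lower, with a median of -0.53. Their summed level fell by 30.5%, while Nr4a1 fell by 36.1%, Dusp1 fell by 25.9% and Ier2 fell by 19.8%. Of 9 OPC markers, 7 were higher and 1 was lower, and their summed level was 14.6% higher. All 5 pericyte markers were higher, by 29.9% in sum, and 5 of 8 endothelial markers were higher and 0 were lower. Of 9 astrocyte markers 7 were lower and 2 were higher, and 6 of 8 markers of myelinating oligodendrocytes were lower. No marker was at 0 in any library. Heat shock genes, which like immediate-early genes can be induced while tissue is dissociated, were lower in 6 of 9 cases and higher in 1, and their sum fell by 22.3%. The part of microglial RNA and of the response to dissociation in the changes of the 10 genes was not tested.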

How the data were processed

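Libraries were made from oligo(dT)-selected RNA and sequenced as single reads of 50 bases (BGIseq500). The submitters' processing notes name Bowtie2 2.2.5 and the build mm10, and the study's text names DESeq2. The counting tool and annotation are not given in the sources used here. The authors deposited, for each gene and library, an expected count (reads shared between genes are divided, and 9.83% of values above 0 were not whole) and an RPKM, the count divided by transcript length and library total, to 2 decimals. Expected counts were rounded and tested with edgeR 4.0.16 in R 4.3.3 by the quasi-likelihood test with TMM scaling and genotype as the only term, in genes that reached 0.5 RPKM in 3 or more of the 6 libraries. P-values are two-sided and adjusted by Benjamini-Hochberg over all 13792 tested genes, and 0.05 was the threshold. The biological coefficient of variation was 5.45%. A single read was 0.0609 to 0.0729 CPM when scaled to library totals alone, without the TMM factor. Replicates differed by more than sampling noise. On simulated counts for this comparison, with 13792 genes, edgeR made 206 calls, of which 191 were among the 200 changed genes. The planted changes were all larger than those of Nr4a1, Dusp1 and Ier2, and every gene had the same dispersion. Far fewer genes were changed than were called in the data. The simulation therefore does not show how well small changes are recovered.

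The members and lists were chosen with earlier results of these data known. All 10 genes are named. From the other lists, the 4 largest rises and 4 largest falls past the threshold without overlap, Nab1, Nab2 and the Rxr genes are named. AP-1 genes and Y-linked genes were added after values were seen. Alternatives were DESeq2 1.42.0, median-of-ratios scaling, library totals, other RPKM filters, a replicate block, robust empirical Bayes, limma 3.58.1 on log2(RPKM + 1) and log2(RPKM + 0.1), and each library left out. Gene positions and promoters are RefSeq's on GRCm38.p6. Egr1 is given without position. Group averages in the table were not used.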

Additional observations from a re-analysis of the deposited data

How the results depend on the processing

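In all 15 alternatives, 3 of the 10 genes were lower and 4 or 5 were higher, the fifth being Egr2, and the median log2 fold change of the 10 genes lay between 0.14 and 0.27. Egr3, Nr4a1, Nr4a2, Nr4a3, Ier2, Dusp1 and Arc kept their direction and stayed past the threshold in each. A rise of 1 or more did not hold in each. The lowest log2 fold change was 0.98 for Egr3, 0.80 for Nr4a2, 0.90 for Nr4a3 and 0.94 for Arc. The log2 fold change of Egr2 was past the threshold at 0.38 with library totals only, 0.30 with an RPKM of at least 1, 0.30 with robust empirical Bayes, and at 0.41 and 0.30 when wildtype replicate 3 or DISC1-Δ3 replicate 3 was left out. The sign of Egr1 turned to 0.073 with library totals only, and to 0.069 and 0.070 in limma on log2(RPKM + 1) and log2(RPKM + 0.1). With 1 library left out, Egr1 lay between -0.052 and 0.027, turning to 0.0070 without wildtype replicate 2 and, with DISC1-Δ3 replicate 1 left out, to 0.027, and Egr4 lay between -0.040 and 0.30, turning to -0.040 without wildtype replicate 3. None of these values passed the threshold. Of all tested genes, 1774 and 1763 were lower in limma with the larger and the smaller pseudocount, beside 2691 in edgeR, and those fits use RPKM without TMM scaling. Other immediate-early genes were higher in 16 to 22 and lower in 19 to 28 cases.

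Deviations of same-numbered libraries had correlations near 0 (0.044, 0.026 and -0.029). With so few libraries this cannot exclude that the numbers pair them, and the labels do not say. With the replicate block, 4 of the 10 genes were higher and 3 were lower, their median was 0.20, and 5429 genes were called in all beside 5498. Egr4 rests on 33 to 55 reads a library and has the widest interval.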
